A study of Mus musculus with 12 samples.

Results

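Transcripts of 8 chemokine receptors, Ccr9, Ccr1, Ccr2, Ccr7, Ccrl2, Cxcr2, Cxcr4 and Cx3cr1, were followed in blood progenitors of mice that had lost Lamtor2. The receptors were chosen by name, as the probe sets whose only gene symbol was 1 of these 8, and each had exactly 1 probe set, which gave 8 of the 19937 genes measured. The product of Lamtor2 is part of Ragulator, which holds the Rag GTPases at the lysosome for mTORC1 and also carries MEK and ERK. RNA came from 2 populations sorted from bone marrow. LSK cells, which lack lineage markers and carry Sca1 and c-Kit, contain the blood stem cells and multipotent progenitors. GMP lack lineage markers and Sca1, carry c-Kit, CD34 and FcγR, and give rise to granulocytes and macrophages. The KO groups came from 3 C57BL/6J mice with floxed Lamtor2 (Lamtor2f/f) and Mx-Cre, and the WT groups from 3 C57BL/6J Mx-Cre mice with wild-type Lamtor2 (strain labels Mx1-Cre wt/wt with Lamtor2f/f or with Lamtor2 wt/wt). Every mouse had received pIpC by intraperitoneal injection and cells were sorted at day 14, so WT and KO share the Cre line and the exposure to an interferon inducer. Mx-Cre is driven by an interferon-inducible promoter and is active in many cell types of the body, so the deletion was not limited to the sorted cells. Ages are not stated in the sample labels, and neither is which LSK and GMP samples came from 1 mouse. There were 12 arrays, 3 in each of the groups LSK WT, LSK KO, GMP WT and GMP KO.

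Chemokine receptors are G protein-coupled receptors that steer cells along gradients of small secreted proteins. They signal mainly through inhibitory G proteins, and arrestins and RGS proteins end the signal. In bone marrow, Cxcr4 holds stem cells and myeloid cells in the niche through its ligand Cxcl12, Cxcr2 draws neutrophils out into the blood, and Ccr2 lets monocytes leave. Cx3cr1 marks monocytes and macrophages and the progenitors that give rise to them. Ccr9 and Ccr7 serve lymphoid cells: Ccr9 guides progenitors to the thymus and lymphocytes to the gut along Ccl25, and Ccr7 guides lymphocytes and dendritic cells to lymph nodes. Ccr1 binds Ccl3 and related inflammatory chemokines, and Ccrl2 is an atypical receptor that holds the chemoattractant chemerin at the cell surface without signalling on its own.

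Values are on a log2 scale after RMA (background correction, quantile normalisation and summary of the probes of a set), so a difference of 1 is a doubling. Levels of different probe sets are not compared with each other, and the table has no detection calls, so it is not known whether the lowest readings lay above an array's background. Array medians lay between 5.96 and 6.18. The deleted gene followed the labels: Lamtor2 read 10.39, 10.48 and 10.31 in LSK WT, 5.11, 5.40 and 5.77 in LSK KO, 10.80, 10.82 and 10.61 in GMP WT, and 5.53, 5.12 and 4.95 in GMP KO. GMP KO replicate 1 stood apart: its correlations with its group's other arrays averaged 0.979, against 0.985 to 0.996 for the other 11 arrays. The GMP differences of Ccr9, Ccr1, Ccr2, Ccrl2, Cx3cr1 and Cxcr2 are therefore also given without that array. The sorted populations matched their labels by marker lists: the mean of 9 LSK genes was 9.05 to 9.15 in LSK WT, 8.59 to 8.83 in LSK KO and 7.06 to 7.44 in GMP arrays, and that of 10 GMP genes was 8.72 to 9.35 in LSK WT, 9.78 to 10.24 in LSK KO and 10.93 to 11.08 in GMP arrays. Every LSK KO array thus lay below the LSK WT arrays in LSK genes, of which 2 of 9 passed as lower (the stem cell genes Hlf and Tek), and above them in GMP genes. Tests are from 1 limma fit of the 4 groups, with Benjamini-Hochberg adjustment over all 19937 genes, and a gene passed when the adjusted p was under 0.05.

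In LSK cells, 2 of the 8 receptors were higher in KO than in WT and passed the test, Ccr9 (14.7-fold) and Ccr2 (3.47-fold), and 0 were lower. In GMP, 3 passed as higher, Ccrl2 (4.14-fold), Ccr1 (2.14-fold) and Ccr9 (2.10-fold), and Cx3cr1 was 2.00-fold lower. Ccr1 in LSK and Ccr2 in GMP did not pass but had an unadjusted limma p under 0.05 (0.00321 and 0.0204). The Ccr9 call in GMP was lost in 7 of 15 alternatives, given with its values. Ccr7 and Cxcr4 passed in neither population, and neither did Cxcr2, whose GMP result turned on a single array. The background to these counts is the share of all genes that passed, 4.44% in LSK (2.49% higher and 1.96% lower) and 16.1% in GMP (5.78% higher and 10.3% lower). No such share was taken for unadjusted p, so counts by unadjusted p in the lists below describe those lists only. The split of the GMP calls depended on scaling: 35.9% of the genes that passed were higher, against 24.7% with arrays centred on the median and 45.7% with quantile normalisation repeated. The KO and WT arrays did not overlap for 5 receptors in each population, against 25.5% of all genes in LSK and 29.6% in GMP. The median difference of the 8 receptors was 0.47 in LSK and 0.088 in GMP, beside -0.013 and 0.015 over all genes. Without GMP KO replicate 1, 5 receptors passed in GMP, Cxcr2 being the fifth, while 3088 of all genes passed, against 3212 with it. The members were picked with earlier results of these arrays known, so these counts describe the receptors and do not test them as a set. In sorted populations measured in bulk, more RNA per cell and more cells of a type that holds the RNA cannot be told apart.

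**Figure D1:**
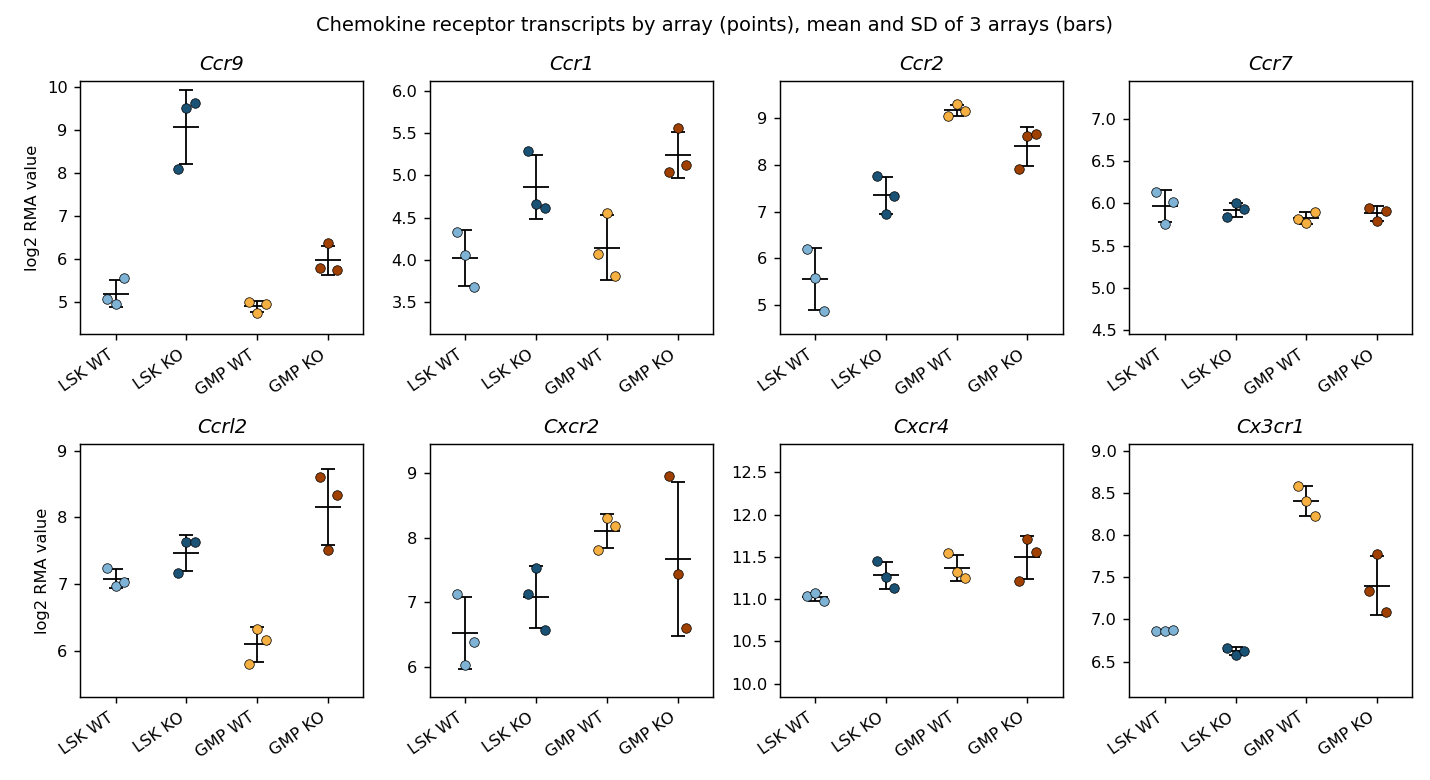
RMA values (log2, vertical axis, scale set for each panel) of the 8 chemokine receptors in the 4 groups; each point is an array, the long bar the mean and the whiskers 1 SD of 3 arrays. Ccr9 reads 8.08 to 9.63 in LSK KO and no more than 6.36 in any other array, while Cx3cr1 and Ccr2 are highest in GMP WT.

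**Figure D2:**
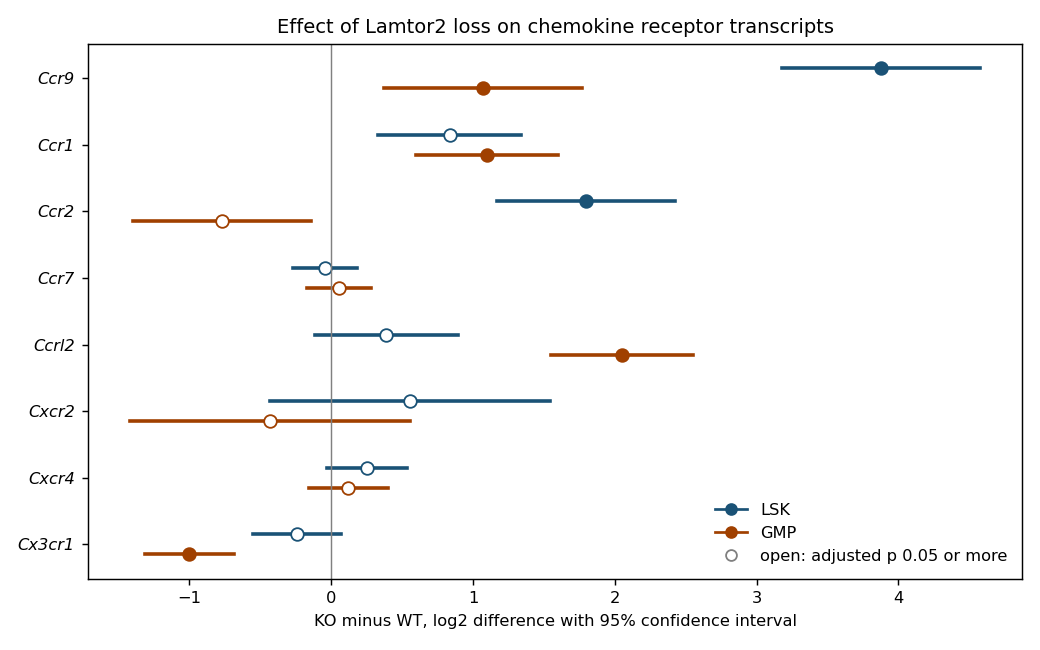
Difference between KO and WT (log2, horizontal axis) for each receptor in LSK (blue) and GMP (brown), with the 95% confidence interval of the limma fit; filled points passed an adjusted p of 0.05. Ccr9 and Ccr2 passed upward in LSK, Ccrl2, Ccr1 and Ccr9 upward in GMP, and Cx3cr1 downward in GMP.

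Ccr9 (probe set 10590620, chromosome 9) showed the largest difference of the 8 receptors in LSK. It read 5.07, 4.95 and 5.55 in LSK WT and 8.08, 9.50 and 9.63 in LSK KO. In GMP it read 4.99, 4.74 and 4.94 in WT and 5.78, 6.36 and 5.75 in KO. All 3 KO arrays lay above all 3 WT arrays in both populations, and the LSK KO arrays lay above every other array. The increase was 3.88 in LSK (SE 0.32, 95% interval 3.18 to 4.58, adjusted p = 3.15e-05) and 1.07 in GMP (SE 0.32, 95% interval 0.37 to 1.77, adjusted p = 0.0388). The difference between the effects, LSK minus GMP, was 2.81 (SE 0.46, 95% interval 1.82 to 3.80, adjusted p = 0.00389). The LSK result passed in all 15 alternatives and the difference between populations in all 20, but the GMP call did not hold in 7 of 15. It was lost with quantile normalisation repeated (adjusted p = 0.066), the trend and robust options (0.0709) and array weights (0.0535), and without GMP WT replicate 1 (0.0808), 2 (0.134) or 3 (0.087) or GMP KO replicate 2 (0.11), with differences from 0.87 to 1.12. Without GMP KO replicate 1 the GMP increase was 1.16 (adjusted p = 0.0451).

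From highest to lowest, the groups' mean Ccr9 levels were 9.07 ± 0.86 in LSK KO, 5.96 ± 0.34 in GMP KO, 5.19 ± 0.32 in LSK WT and 4.89 ± 0.13 in GMP WT (SD, n = 3). LSK KO was above GMP KO by 3.11 (SE 0.32, adjusted p = 4.65e-05). GMP KO and LSK WT were not tested against each other, and their arrays did not overlap. The WT populations overlapped, with a difference of 0.30 whose 95% interval ran from -0.40 to 1.00 (adjusted p = 0.623). Within LSK KO, replicate 1 was lower than the other replicates and was still above every array of the other groups.

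The start of Ccr9 is printed because this gene carries the largest change. RefSeq (build GRCm38.p6) places this window, 250 bases before to 50 bases after the transcription start, at chr9:123766961-123767260 on the plus strand.
Ccr9 promoter: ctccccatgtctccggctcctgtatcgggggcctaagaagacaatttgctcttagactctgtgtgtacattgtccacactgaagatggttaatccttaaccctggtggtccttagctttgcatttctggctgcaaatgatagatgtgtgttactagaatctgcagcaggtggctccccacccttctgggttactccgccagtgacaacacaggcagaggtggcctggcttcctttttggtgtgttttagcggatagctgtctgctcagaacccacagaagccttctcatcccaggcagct
The 6 motifs searched on both strands were the E-box CACGTG (bound by MiT/TFE and Myc factors), the PU.1 core GAGGAA, the C/EBP site TTGCNNAA, the NF-kB site GGGNNTTCC, the GATA site AGATAA and the RUNX site TGTGGT, and matches are printed in capitals. The Ccr9 window held 0 matches. Over all 32851 mouse promoter windows of this length, the shares with a match were 7.15% for the E-box, 28.3% for PU.1, 10.8% for C/EBP, 5.82% for NF-kB, 11.2% for GATA and 16.8% for RUNX. The table had 9 windows for 7 of the 8 receptors, of which 0 matched the E-box, 2 PU.1, 0 C/EBP, 1 NF-kB, 3 GATA and 2 RUNX. A match is a run of letters and not a measured binding site.

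Ccr9 lies among other receptor genes. In RefSeq's order the protein-coding genes run Sacm1l, Slc6a20b, Slc6a20a, Lztfl1, Ccr9, Fyco1, Cxcr6, Xcr1, Ccr1, Ccr1l1, Ccr3 and Ccr2. Of 12 listed genes of this stretch and of the stretch around Ccrl2 (Ltf and Rtp3), the 8 receptors left out, 11 were measured. In LSK, 0 of the 11 passed in the limma fit and 1 had an unadjusted p under 0.05, with a median of -0.089. That gene, named after its values were seen, was Lztfl1, directly beside Ccr9, which encodes a regulator of protein traffic in cilia. It read 9.31, 9.40 and 9.44 in LSK WT and 10.41, 11.13 and 10.79 in LSK KO, a difference of 1.39 (SE 0.37, 95% interval 0.59 to 2.19) that just missed the threshold (adjusted p = 0.0511). In GMP it read 9.12, 9.14 and 9.12 in WT and 11.32, 9.47 and 9.43 in KO, a difference of 0.94 (adjusted p = 0.109) in which GMP KO replicate 1 was far above the others. The 4 groups share 1 spread in the fit, so that array also enters the SE of the LSK difference. The SD of Lztfl1 was 1.08 in GMP KO, 0.07 in LSK WT and 0.36 in LSK KO. KO and WT arrays of Lztfl1 did not overlap in either population, as for Ccr9. With arrays centred on the median 1 of the 11 genes passed as higher in LSK. In GMP 1 passed as higher, the T cell and NKT cell receptor Cxcr6, and 4 had an unadjusted p under 0.05. Over all genes 4.44% passed in LSK and 16.1% in GMP.

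Ccr1 (probe set 10598004, chromosome 9) was higher in KO arrays of both populations. It read 4.34, 4.06 and 3.68 in LSK WT and 5.30, 4.66 and 4.62 in LSK KO. GMP arrays read 4.07, 4.56 and 3.81 in WT and 5.05, 5.56 and 5.12 in KO. KO and WT arrays did not overlap in either population. The increase in GMP was 1.10 (SE 0.23, 95% interval 0.60 to 1.60, adjusted p = 0.00589), and 1.19 without GMP KO replicate 1 (adjusted p = 0.00618). It passed in all 14 alternatives that kept the gene, since leaving out the dimmest 30% of genes removes Ccr1. The LSK difference was 0.83 (SE 0.23, 95% interval 0.33 to 1.33) and did not pass (adjusted p = 0.0624). It passed with array weights (0.0216) and when only the 6 LSK arrays were fitted (0.0387). The effects in the populations did not differ detectably, by -0.26 with a 95% interval of -0.97 to 0.45 (adjusted p = 0.704). The group means were, in order, 5.24 ± 0.28 in GMP KO, 4.86 ± 0.38 in LSK KO, 4.15 ± 0.38 in GMP WT and 4.03 ± 0.33 in LSK WT (SD, n = 3). The populations did not pass against each other in WT (-0.12, adjusted p = 0.803) or in KO (-0.38, adjusted p = 0.273).

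Ccr2 (probe set 10590631, chromosome 9), the monocyte receptor for Ccl2, lay higher in KO in LSK and lower in KO in GMP. It read 6.20, 5.59 and 4.88 in LSK WT and 7.75, 6.96 and 7.34 in LSK KO. In GMP it read 9.04, 9.29 and 9.16 in WT and 7.92, 8.62 and 8.66 in KO. All LSK KO arrays were above all LSK WT arrays, and all GMP KO arrays were below all GMP WT arrays. The increase in LSK was 1.80 (SE 0.29, 95% interval 1.17 to 2.42, adjusted p = 0.00318) and passed in all 15 alternatives. The GMP difference of -0.77 (SE 0.29, 95% interval -1.40 to -0.14) did not pass (adjusted p = 0.096), and was -0.53 without GMP KO replicate 1 (adjusted p = 0.29). Among the alternatives it passed only when the 6 GMP arrays were fitted by themselves (0.0447). The effects differed by 2.56 (SE 0.41, 95% interval 1.68 to 3.46, adjusted p = 0.00375), and this passed in all 20 alternatives. The order of the group means was 9.17 ± 0.13 in GMP WT, 8.40 ± 0.42 in GMP KO, 7.35 ± 0.40 in LSK KO and 5.56 ± 0.66 in LSK WT (SD, n = 3). In WT, LSK lay 3.61 below GMP (SE 0.29, 12.2-fold, adjusted p = 1.75e-06). In KO the gap was 1.05 (2.07-fold, adjusted p = 0.0277), and it did not pass without LSK KO replicate 2 (0.0966) or 3 (0.0873) or GMP KO replicate 2 (0.0622) or 3 (0.077).

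The window around the start of Ccr2 is at chr9:124101933-124102232 on the plus strand of GRCm38.p6, from RefSeq, and is shown because the KO effect on Ccr2 differed between LSK and GMP.
Ccr2 promoter: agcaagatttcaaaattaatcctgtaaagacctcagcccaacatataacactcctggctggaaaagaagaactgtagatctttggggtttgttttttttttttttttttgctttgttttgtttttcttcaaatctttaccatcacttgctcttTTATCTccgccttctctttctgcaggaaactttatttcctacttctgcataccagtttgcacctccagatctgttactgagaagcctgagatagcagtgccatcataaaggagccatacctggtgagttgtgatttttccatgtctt
It held 1 match, the reverse complement of the GATA site (TTATCT), 97 bases before the start, and was poorer in G and C (38.0%) than the median window (52.7%).

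Ccrl2 (probe set 10597279, chromosome 9) had the largest difference of the receptors in GMP. It read 5.81, 6.32 and 6.17 in GMP WT and 8.60, 7.52 and 8.34 in GMP KO. In LSK it read 7.25, 6.97 and 7.03 in WT and 7.16, 7.63 and 7.63 in KO. The GMP arrays did not overlap, while LSK KO replicate 1 fell among the LSK WT arrays. The increase in GMP was 2.05 (SE 0.23, 95% interval 1.55 to 2.55, adjusted p = 8.02e-05), and 1.83 without GMP KO replicate 1 (adjusted p = 1.24e-04). The LSK difference was 0.39 (95% interval -0.11 to 0.89, adjusted p = 0.481). The effects differed by -1.66, LSK minus GMP (SE 0.33, 95% interval -2.37 to -0.95, adjusted p = 0.00951). The GMP increase passed in all 15 alternatives and the difference between effects in all 20. The order was GMP KO (8.15 ± 0.57), LSK KO (7.47 ± 0.27), LSK WT (7.08 ± 0.15) and GMP WT (6.10 ± 0.26; SD, n = 3), so the populations stood in opposite order in WT and KO. LSK was above GMP by 0.98 in WT (SE 0.23, adjusted p = 0.0082). In KO LSK was 0.68 below, which did not pass (adjusted p = 0.0653) except without GMP KO replicate 2 (-0.997, adjusted p = 0.00244).

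RefSeq lists 3 starts for Ccrl2 on the minus strand. The one farthest upstream, with its window at chr9:111057469-111057768 of GRCm38.p6, is printed because it is the only receptor window with an NF-kB match.
Ccrl2 promoter: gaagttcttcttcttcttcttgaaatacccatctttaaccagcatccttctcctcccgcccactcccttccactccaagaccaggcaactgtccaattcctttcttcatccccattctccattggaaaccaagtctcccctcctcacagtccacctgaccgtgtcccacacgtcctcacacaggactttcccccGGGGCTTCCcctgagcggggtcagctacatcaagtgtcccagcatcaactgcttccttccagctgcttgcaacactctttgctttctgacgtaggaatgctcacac
The match, GGGGCTTCC, lay 56 bases before the start. The windows of the other starts overlap this one in part and held a GATA match (TTATCT) instead, at 77 and 103 bases before their starts, which is the same run of letters counted from each.

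Cx3cr1 (probe set 10597743, chromosome 9), a receptor of monocytes and macrophages for the membrane-bound chemokine Cx3cl1, was the receptor that fell. The GMP values were 8.58, 8.40 and 8.23 in WT and 7.33, 7.78 and 7.09 in KO. In LSK it read 6.86, 6.86 and 6.88 in WT and 6.66, 6.58 and 6.63 in KO. KO arrays lay below WT arrays in both populations without overlap. In GMP Cx3cr1 fell by 1.00 (SE 0.15, 95% interval of the difference -1.32 to -0.69, adjusted p = 4.82e-04), and the difference was -0.97 without GMP KO replicate 1 (adjusted p = 0.00123). This passed in all 15 alternatives. The LSK difference of -0.24 (95% interval -0.56 to 0.07) did not pass (adjusted p = 0.482), although the spread within each LSK group was small (SD 0.01 in WT and 0.04 in KO). The difference between effects, 0.76 (SE 0.21, 95% interval 0.32 to 1.20, adjusted p = 0.0382), was less firm. It did not pass with quantile normalisation repeated (0.71, adjusted p = 0.0623), nor after leaving out GMP KO replicate 3 (0.61, adjusted p = 0.0559), GMP WT replicate 1 (0.67, adjusted p = 0.0979), GMP WT replicate 2 (adjusted p = 0.0892) or any LSK array (adjusted p 0.0605 to 0.0848). The order of the means was 8.40 ± 0.18 in GMP WT, 7.40 ± 0.35 in GMP KO, 6.87 ± 0.01 in LSK WT and 6.63 ± 0.04 in LSK KO (SD, n = 3). LSK lay below GMP by 1.54 in WT (SE 0.15, 2.90-fold, adjusted p = 6.17e-06) and by 0.78 in KO (SE 0.15, 1.71-fold, adjusted p = 0.00313).

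Cxcr2 (probe set 10347291, chromosome 1), the neutrophil receptor for Cxcl1, Cxcl2 and Ppbp, varied most among GMP KO arrays. It read 7.81, 8.31 and 8.18 in GMP WT and 8.95, 7.44 and 6.61 in GMP KO. In LSK it read 7.13, 6.04 and 6.40 in WT and 7.13, 7.53 and 6.58 in KO. GMP KO replicate 1 lay above every GMP WT array and the other KO arrays lay below them. The GMP difference was -0.43 (SE 0.46, 95% interval -1.42 to 0.55, adjusted p = 0.605). Without GMP KO replicate 1 it was -1.07 and passed (adjusted p = 0.0415), and without GMP KO replicate 3 it was 0.095. The LSK difference was 0.56 (95% interval -0.43 to 1.54, adjusted p = 0.657). The difference between effects was 0.99 (95% interval -0.40 to 2.39, adjusted p = 0.416), and 1.63 without GMP KO replicate 1 (adjusted p = 0.0325). Averaged over 9 neutrophil genes such as S100a8, Ltf and Ngp, the mean level in the GMP KO arrays was 9.76, 8.13 and 7.92, in the same order as Cxcr2. In the GMP WT arrays it was 9.93, 7.82 and 8.96, which is not the order of Cxcr2. The part of neutrophil RNA in the Cxcr2 values was not tested. In WT, LSK lay 1.58 below GMP (SE 0.46, 2.99-fold, adjusted p = 0.0256). That call was lost with the trend and robust options (0.0691) and without LSK WT replicate 2 (0.114) or 3 (0.0775) or GMP WT replicate 2 (0.0895) or 3 (0.0796). In KO the difference was -0.59 (adjusted p = 0.389), and 0.052 without GMP KO replicate 1. The means were 8.10 ± 0.26 in GMP WT, 7.67 ± 1.18 in GMP KO, 7.08 ± 0.48 in LSK KO and 6.52 ± 0.56 in LSK WT (SD, n = 3), and each neighbouring pair in this order overlapped.

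Cxcr4 (probe set 10357472, chromosome 1), the receptor that keeps progenitors in the marrow, passed in neither population. It read 11.04, 11.07 and 10.97 in LSK WT and 11.45, 11.26 and 11.14 in LSK KO. In GMP it read 11.54, 11.32 and 11.25 in WT and 11.22, 11.71 and 11.56 in KO. The LSK arrays did not overlap, but the difference of 0.25 (95% interval -0.03 to 0.54) did not pass (adjusted p = 0.383). In GMP the arrays overlapped and the difference was 0.12 (95% interval -0.16 to 0.40, adjusted p = 0.612). These intervals leave out a rise of 1 on the log2 scale, or a doubling, in either population. The order of means was 11.49 ± 0.25 in GMP KO, 11.37 ± 0.15 in GMP WT, 11.28 ± 0.16 in LSK KO and 11.03 ± 0.05 in LSK WT (SD, n = 3). WT LSK lay 0.34 below WT GMP, which did not pass (adjusted p = 0.0879). It passed with arrays centred on the median (-0.44, adjusted p = 0.0386), with array weights (0.00854) and in a fit of the WT arrays alone (0.0215). In KO the difference was -0.21 (adjusted p = 0.282), and the effects differed by 0.13 (95% interval -0.27 to 0.53, adjusted p = 0.741).

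Ccr7 (probe set 10390763, chromosome 11), the lymph node homing receptor, had overlapping values throughout. It read 6.14, 5.76 and 6.01 in LSK WT, 5.84, 6.00 and 5.93 in LSK KO, 5.82, 5.76 and 5.90 in GMP WT, and 5.95, 5.79 and 5.91 in GMP KO. All 4 groups overlapped, with means of 5.97 ± 0.19, 5.93 ± 0.08, 5.83 ± 0.07 and 5.88 ± 0.09 (SD, n = 3). The KO difference was -0.05 in LSK (95% interval -0.27 to 0.18, adjusted p = 0.918) and 0.06 in GMP (95% interval -0.17 to 0.28, adjusted p = 0.797). The sign of the GMP difference depended on scaling, with -0.014 under repeated quantile normalisation and under centring on the median. WT LSK and WT GMP differed by 0.14 (adjusted p = 0.426).

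Set side by side, 4 of the 8 receptors responded differently in LSK and GMP: Ccr9 and Ccr2 more upward in LSK, Ccrl2 more upward in GMP, and Cx3cr1 more downward in GMP. The Cx3cr1 call was lost in 10 of 20 alternatives, while those of Ccr9, Ccr2 and Ccrl2 held in all 20. Over all genes 7.98% passed this test of the difference between effects. The median over the receptors was 0.45, beside -0.03 over all genes. Without GMP KO replicate 1 there were 5 receptors, Cxcr2 being the fifth, and the calls over all genes rose from 1591 to 2006. Between WT populations 4 receptors passed, Ccr2, Cx3cr1 and Cxcr2 lower and Ccrl2 higher in LSK, beside 19.6% of all genes. Between KO populations 3 passed, Ccr9 higher and Ccr2 and Cx3cr1 lower in LSK, beside 15.8% of all genes. These comparisons share arrays and are not independent of each other.

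Ligands of the receptors were measured in the same cells, 18 of 19 listed. In LSK 3 passed as higher and 1 as lower, with a median of 0.057, and in GMP 5 passed as higher and 0 as lower, with a median of 0.17. By unadjusted p, 8 were under 0.05 in LSK and 6 in GMP. Of all genes, 4.44% passed in LSK (2.49% higher and 1.96% lower) and 16.1% in GMP (5.78% higher and 10.3% lower). Ccl3, a ligand of Ccr1, read 8.01, 8.23 and 7.78 in LSK WT and 10.23, 10.58 and 11.50 in LSK KO. GMP arrays read 6.11, 6.00 and 5.56 in WT and 10.89, 10.29 and 11.12 in KO. The groups were far apart in both populations, by 2.76 in LSK (SE 0.29, adjusted p = 1.19e-04) and 4.88 in GMP (adjusted p = 3.28e-07), and the KO means were nearly equal at 10.77 in each. The effect was larger in GMP, with a difference of -2.11, LSK minus GMP (SE 0.40, adjusted p = 0.00825).

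Ccl2, the main ligand of Ccr2, read 5.84, 5.54 and 5.72 in LSK WT and 7.51, 7.26 and 7.34 in LSK KO. In GMP it read 5.58, 5.74 and 5.63 in WT and 7.82, 8.95 and 8.98 in KO. It rose by 1.67 in LSK (SE 0.23, adjusted p = 0.0011) and 2.94 in GMP (adjusted p = 4.35e-06), so in GMP the ligand rose while its receptor read lower without passing. The difference between these Ccl2 effects, -1.26 (adjusted p = 0.0332), was lost in 11 of the 12 fits that left out an array (adjusted p 0.0533 to 0.0794), all but that without GMP KO replicate 1. Further Ccr2 ligands passed in GMP. Ccl7 rose by 1.27 in GMP (SE 0.20, adjusted p = 8.17e-04). Ccl12 rose by 0.84 in GMP (SE 0.22, adjusted p = 0.0203), lost with quantile normalisation repeated (0.0566), in a fit of GMP alone (0.0949) and without GMP WT replicate 1 (0.053) or 2 (0.0843) or GMP KO replicate 2 (0.0597) or 3 (0.0668).

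Ccl9 and Ccl6 are further ligands of Ccr1. Ccl9 rose by 0.99 in LSK (SE 0.13, adjusted p = 6.25e-04), and its effects differed by 1.25 between LSK and GMP (adjusted p = 0.00213). Ccl6 rose by 0.73 in GMP (SE 0.19, adjusted p = 0.0196), lost without GMP WT replicate 2 (0.0811) or 3 (0.0519) or GMP KO replicate 3 (0.0672). Ccl25, the ligand of Ccr9, read 6.49 to 6.69 in LSK WT and 6.48 to 6.84 in LSK KO, which overlap. Rarres2, which encodes the Ccrl2 ligand chemerin, averaged 6.08 ± 0.18 in GMP WT and 6.26 ± 0.10 in GMP KO (SD, n = 3), and Cx3cl1 averaged 5.87 ± 0.03 and 5.77 ± 0.04. The Cxcr2 ligand Ppbp, a platelet chemokine chosen here after its values were seen, fell by 1.35 in LSK (SE 0.19, adjusted p = 0.00101), from 5.52 in WT to 4.17 in KO. The mean of 5 megakaryocyte genes was 7.75 to 8.22 in LSK WT and 7.09 to 7.62 in LSK KO. In LSK 1 of the 5 passed as lower, the platelet chemokine Pf4 (-2.33, adjusted p = 0.0497), beside 1.96% of all genes. The part of megakaryocyte RNA in the fall of Ppbp was not tested.

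**Figure D3:**
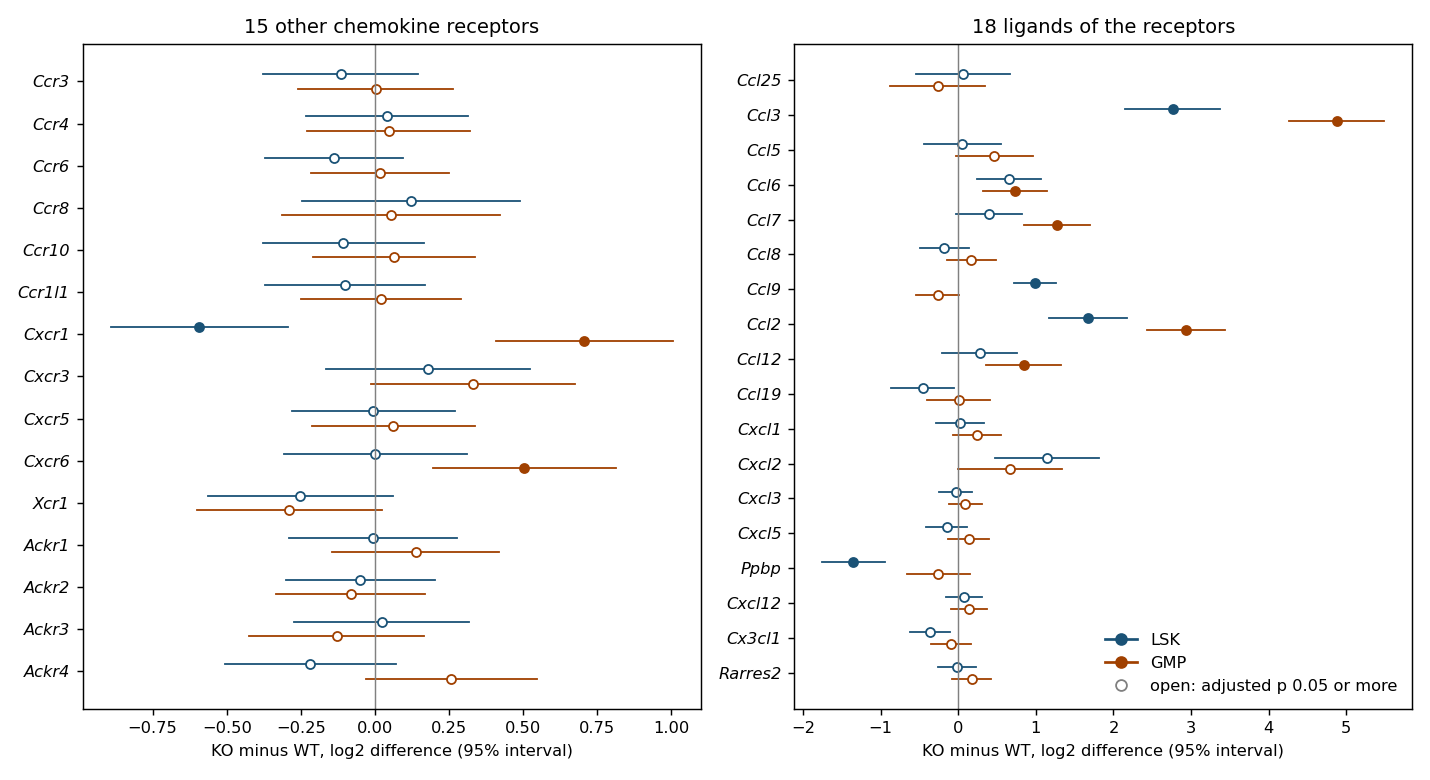
Difference between KO and WT (log2, horizontal axes) with 95% confidence intervals for 15 other chemokine receptors (left) and 18 ligands of the receptors studied (right), in LSK (blue) and GMP (brown); filled points passed an adjusted p of 0.05 and the horizontal scales differ. Ccl3 and Ccl2 are far to the right in both populations, and Cxcr1 lies on opposite sides of 0.

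Among 15 other chemokine receptors measured of 16 listed, 0 passed as higher and 1 as lower in LSK (1 with an unadjusted p under 0.05), and 2 passed as higher and 0 as lower in GMP (2 with an unadjusted p under 0.05). Their median difference was -0.049 in LSK and 0.053 in GMP, and the latter was -0.013 with quantile normalisation repeated and -0.016 with arrays centred on the median. The share of all genes that passed was 4.44% in LSK and 16.1% in GMP. Cxcr1, the neighbour and close relative of Cxcr2, went both ways. It read 6.91, 6.73 and 6.73 in LSK WT and 5.99, 6.42 and 6.17 in LSK KO. The GMP values were 5.79, 5.68 and 5.95 in WT and 6.78, 6.32 and 6.44 in KO. No KO array overlapped WT in either population. It fell by 0.59 in LSK (SE 0.14, adjusted p = 0.0269) and rose by 0.71 in GMP (SE 0.14, adjusted p = 0.00374), and the effects differed by -1.30 (SE 0.20, adjusted p = 0.0027). The LSK call was lost without LSK WT replicate 1 (0.113), 2 (0.0747) or 3 (0.0653) or LSK KO replicate 1 (0.111) or 3 (0.095). Cxcr6 rose by 0.50 in GMP (SE 0.14, adjusted p = 0.0288), lost with quantile normalisation repeated (0.0605), with centring on the median (0.0638) and without GMP WT replicate 1 (0.0513), 2 (0.119) or 3 (0.0712) or GMP KO replicate 2 (0.0834).

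Of 36 measured genes that carry or end chemokine receptor signals, 1 passed as higher and 1 as lower in LSK, with a median of -0.046, and 6 as higher and 5 as lower in GMP, with a median of -0.068. The GMP median was 0.051 with quantile normalisation repeated. Beside these counts, 4.44% of all genes passed in LSK and 16.1% in GMP. Rgs1, which speeds up GTP hydrolysis by inhibitory G proteins and so ends chemokine signals, had the largest difference of this list in GMP. It read 9.11, 8.65 and 8.82 in LSK WT and 9.73, 9.97 and 10.65 in LSK KO. In GMP it read 5.25, 6.12 and 5.67 in WT and 9.61, 9.46 and 10.23 in KO. KO arrays lay above WT in both populations, and GMP KO reached the range of LSK KO. Rgs1 rose by 4.08 in GMP (adjusted p = 7.63e-07) and by 1.26 in LSK (SE 0.26, adjusted p = 0.0155), and the effects differed by -2.83 (adjusted p = 0.00148). The LSK call was lost without LSK WT replicate 2 (0.0793) or 3 (0.0566) or LSK KO replicate 3 (0.0739).

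In GMP the arrestin Arrb2, which uncouples receptors from G proteins, rose by 0.69 (SE 0.10, adjusted p = 3.46e-04), and Pik3r5, a regulatory subunit of the PI3K gamma that chemokine receptors activate, rose by 1.08 (SE 0.19, adjusted p = 0.00188). Partners, named after their values were seen, went both ways. Pik3r6, the other PI3K gamma subunit listed beside Pik3r5, fell by 0.43 (adjusted p = 0.0388). Plcb2 rose by 0.46 (adjusted p = 0.0424), while Plcb3 fell by 0.48 (adjusted p = 0.03) and Grk5 by 0.52 (adjusted p = 0.0488). The G protein subunit Gng2 rose by 0.64 (adjusted p = 0.017), lost in a fit of GMP alone (0.084) and without GMP WT replicate 2 (0.0656) or GMP KO replicate 2 (0.0544) or 3 (0.0553). Dock2, the Rac activator of migrating leukocytes, rose by 0.31 (adjusted p = 0.0188), lost with centring on the median (0.0567), in a fit of GMP alone (0.0925) and without GMP WT replicate 1 (0.0634) or 3 (0.0628). Rasgrp2, the Rap activator that links receptors to integrins, fell by 0.51 in GMP (adjusted p = 0.005; 0.0508 with quantile normalisation repeated) and by 0.47 in LSK (adjusted p = 0.0221). The LSK call was lost without LSK WT replicate 1 (0.0627) or 2 (0.112) or LSK KO replicate 2 (0.0954) or 3 (0.0628).

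Some marker lists of other cell types were higher in KO arrays and others were lower. The background to their counts is the share of all genes that passed. It was 4.44% in LSK (2.49% higher and 1.96% lower) and 16.1% in GMP (5.78% higher and 10.3% lower). The mean level of 13 macrophage genes was 5.47 to 5.69 in LSK WT, 6.02 to 6.75 in LSK KO, 6.03 to 6.10 in GMP WT and 7.27 to 7.70 in GMP KO. In LSK 3 of the 13 passed as higher, among them the complement genes C1qb (2.20, adjusted p = 0.00337) and C1qc (2.20, adjusted p = 0.0033), and in GMP 6 of 13, among them C1qc (4.83) and the mannose receptor Mrc1 (3.10, adjusted p = 1.56e-04). Cd5l, Timd4 and Vsig4, markers of resident macrophages, had group means of 3.50 to 3.75, 5.11 to 5.18 and 3.51 to 3.62 over the 4 groups. The mean of 6 mast cell and basophil genes was 5.96 to 6.95 in LSK WT, 7.86 to 8.99 in LSK KO, 8.72 to 9.33 in GMP WT and 9.66 to 10.98 in GMP KO, with 4 passing as higher in LSK and 3 in GMP. Of the 10 genes that mark GMP 4 passed as higher in LSK, and Fcgr3, part of the gate that defines GMP, rose by 2.36 in LSK (adjusted p = 7.04e-05). The mean of 9 monocyte genes was 6.54 to 7.15 in LSK WT, 7.64 to 8.003 in LSK KO, 8.46 to 8.56 in GMP WT and 8.57 to 9.08 in GMP KO. In LSK 3 of the 9 passed as higher and 0 as lower, and in GMP 2 passed as higher (Ctss and Mpeg1) and 3 as lower (Fn1, Klf4 and Ms4a6c). Lower in LSK KO than in LSK WT without overlap were the means of 7 B cell genes (5.57 to 5.72 against 5.79 to 6.29) and of the megakaryocyte and LSK lists, while the neutrophil, eosinophil and erythroid lists overlapped. In LSK 0 of the 7 B cell genes passed. Their mean was also lower in GMP KO (5.63 to 5.70) than in GMP WT (5.965 to 6.19), with 2 of 7 passing as lower. The mean of 7 NK cell genes was higher in LSK KO (5.51 to 5.77) than in LSK WT (5.32 to 5.40), and 0 of the 7 passed in LSK. Macrophages and monocytes carry Ccr1, Ccr2, Ccrl2 and Cx3cr1, and the part of these cells in the receptor values was not tested.

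For Ccr9, markers of cells known to carry it were examined, again beside 4.44% of all genes passing in LSK and 16.1% in GMP. The mean of 10 plasmacytoid dendritic cell genes was 6.78 to 6.93 in LSK WT and 6.62 to 6.87 in LSK KO, and 0 of the 10 passed as higher and 1 as lower in LSK. By unadjusted limma p 5 of them were under 0.05, Irf8 as higher and Ly6d, Cox6a2, Spib and Irf7 as lower. Siglech read a mean of 5.99 in LSK WT and 6.53 in LSK KO (adjusted p = 0.345). The mean of 7 T cell genes was 5.68 to 5.98 in LSK WT and 5.76 to 6.05 in LSK KO, and 0 of the 7 passed in the limma fit in LSK (1 with an unadjusted p under 0.05). Cd3d averaged 4.59 in LSK WT and 4.43 in LSK KO. Among 8 lymphoid progenitor genes 1 passed as higher and 3 as lower in LSK: the interleukin receptor Il7r rose by 1.91 (adjusted p = 0.0211), while Notch1 fell by 0.94 (adjusted p = 0.00161), Rag2 fell by 0.75 (adjusted p = 0.0235) and Rag1 fell by 0.58 (adjusted p = 0.0445). In GMP 1 of the 10 plasmacytoid dendritic cell genes passed as higher, Siglech (0.96, adjusted p = 0.0227), and 1 as lower, Irf8 (-1.19). The T cell list had a mean of 5.27 to 5.37 in GMP WT and 5.88 to 6.12 in GMP KO, and 2 of 7 passed as higher there, Cd4 (2.83, adjusted p = 5.25e-04), also carried by some myeloid cells, and Lat (0.70, adjusted p = 0.0473), while Cd3d differed by 0.03 (adjusted p = 0.926). Of the 8 lymphoid progenitor genes 2 passed as higher in GMP, Il7r (4.66) and Flt3 (1.26), and 2 as lower, Notch1 (-0.57) and Rag2 (-0.63), with a median of -0.243. The mean of this list was nevertheless higher in GMP KO (6.81 to 6.93) than in GMP WT (6.39 to 6.44). In LSK its mean overlapped, with 7.73 to 8.12 in WT and 7.56 to 8.06 in KO. The part of such cells in the values of Ccr9 was not tested in either population.

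**Figure D4:**
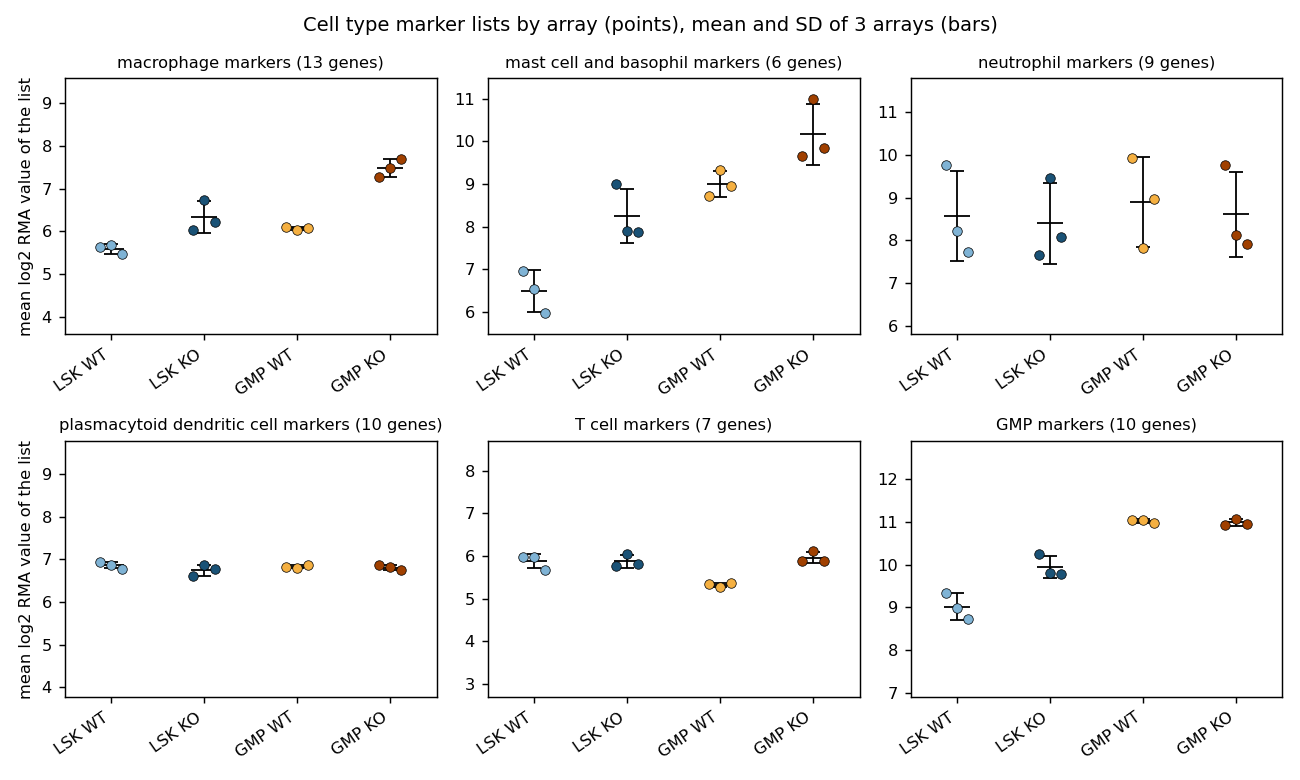
Mean RMA value (log2, vertical axis, each panel spanning 6 units) of 6 cell type marker lists in the 4 groups; points are arrays, bars the mean and SD of 3 arrays. Macrophage and mast cell and basophil lists are higher in KO in both populations, and the plasmacytoid dendritic cell list stays between 6.62 and 6.93 in all 12 arrays.

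The genes whose 12-array profile lay nearest to that of each receptor were found by the root mean square difference of log2 values, each gene centred on its own mean. Each was picked for its likeness to a receptor on these same arrays. Likeness in direction is therefore built into the choice, and the adjusted p values of these genes are no separate evidence. Nearest to Ccr9 was Havcr2, which encodes the inhibitory receptor Tim-3, at 0.713, where the median of all genes was 1.73. Havcr2 read 6.04, 5.78 and 6.12 in LSK WT and 8.99, 8.45 and 8.58 in LSK KO. In GMP it averaged 5.53 ± 0.13 in WT and 6.93 ± 0.32 in KO (SD, n = 3). Like Ccr9, to which it was picked as nearest, it was highest in LSK KO and higher in KO in both populations. The next were Pdcd1lg2 (the PD-1 ligand PD-L2, 1.02), the semaphorin Sema3d (1.11), the sulfatase Sulf2 (1.13) and the phosphatase Dusp4 (1.14). Pdcd1lg2, Sulf2 and Dusp4 rose in KO in both populations, by 1.44, 2.51 and 1.27 in LSK and by 1.14, 2.47 and 1.18 in GMP, whereas Sema3d rose in LSK (1.05, adjusted p = 4.78e-04) and not detectably in GMP (0.15, adjusted p = 0.514).

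Nearest to Ccr1 was Emilin2, an extracellular matrix glycoprotein gene, at 0.216, where the median of all genes was 0.609. Nearest to Ccr2 was Hdc, the histamine-forming enzyme of mast cells and basophils, at 0.285 against a median of 1.40. Hdc averaged 6.77 in LSK WT, 8.55 in LSK KO, 10.62 in GMP WT and 10.07 in GMP KO. It differed by 1.78 in LSK (adjusted p = 0.00571) and by -0.55 in GMP (adjusted p = 0.289). These directions go with its choice as nearest to Ccr2. Nearest to Ccrl2 was Gngt2, a G protein gamma subunit gene, at 0.249 against 0.808, with an increase of 1.80 in GMP (adjusted p = 2.71e-06) and a difference of 0.49 in LSK that did not pass (adjusted p = 0.0624). Nearest to Cx3cr1 was the predicted gene Gm9733 at 0.202 against 0.71.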

How the data were processed

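The table deposited by the authors holds log2 values of 34760 Affymetrix probe sets for 12 arrays, made with RMA per the submitters' processing notes. The sources used here give no software, version or genome build for RMA. Per the labels, RNA was amplified with NuGEN WT-Ovation Pico and labelled with the Ambion WT Expression Kit. No further normalisation was applied. Probe sets with 1 gene symbol (21640) gave 19937 genes; where a gene had several, the highest mean over the arrays was kept. Named members and lists were chosen with earlier results of these data known. The 4 groups were fitted together with limma 3.58.1 in R 4.3.3 (lmFit and eBayes, residual degrees of freedom 8, prior 5.16), with two-sided tests, Benjamini-Hochberg over all genes, threshold 0.05, and each adjusted p is from limma. Intervals are 95% intervals of that fit. The script was tested on simulated data. The number of arrays, 3 a group, limits the precision. Replicate numbers were not taken as pairs. The main fit took all arrays as independent, also in comparisons of LSK with GMP, whose arrays of 1 genotype may share mice. Deviations of same-numbered arrays correlated at -0.231 to 0.285 over all pairs of groups. For LSK and GMP of 1 genotype, which could share a mouse, r was 0.177, -0.027 and 0.08 in WT. In KO it was 0.001, -0.179 and 0.146. These values cannot show whether same-numbered arrays came from 1 mouse. Named genes were the members, Lamtor2, up to 6 passing genes of each list by smallest p (ligands only of receptors that passed), and the nearest profiles (5 for Ccr9, 1 for each other receptor that passed). Promoter windows are RefSeq's, GRCm38.p6. Alternatives were repeated quantile normalisation, centring on the median, leaving out the dimmest 30% of genes, averaging probe sets, array weights, eBayes with trend and robust options, fitting only the compared groups, replicate blocks and leaving out each array.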

Additional observations from a re-analysis of the deposited data

Results flagged for a closer look

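The KO effect differed between LSK and GMP by a limma test of the difference itself, LSK effect minus GMP effect, for 4 receptors. For Ccr9 the difference was 2.81 (adjusted p = 0.00389), with increases in both populations. For Ccr2 it was 2.56 (adjusted p = 0.00375), where all 3 KO arrays lay above the WT arrays in LSK and below them in GMP. For Ccrl2 it was -1.66 (adjusted p = 0.00951), with the larger increase in GMP. For Cx3cr1 it was 0.76 (adjusted p = 0.0382), with the larger decrease in GMP, and this call was lost in 10 of 20 alternatives. The calls of Ccr9, Ccr2 and Ccrl2 held in all 20.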

How the results depend on the processing

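With 3 arrays a group, the counts of receptors past the threshold moved by at most 1 in either direction: 2 or 3 in LSK, 3 to 5 in GMP, 3 to 5 for the difference between effects, 3 to 5 between WT populations and 2 or 3 between KO populations. Signs turned only in differences that did not pass. With repeated quantile normalisation Ccr7 in GMP was -0.014 and the Cxcr4 difference between effects was -0.042, and with centring on the median Ccr7 in GMP was -0.014; the cause was not tested. Leaving out an array, Ccr7 in LSK ranged from -0.15 to 0.038, Cxcr2 in GMP from -1.07 to 0.095, the Cxcr4 difference between effects from -0.005 to 0.24, Ccr1 between WT populations from -0.29 to 0.087, Cxcr2 between KO populations from -1.12 to 0.052 and Ccr7 between KO populations from -0.004 to 0.087. With the replicate block as a fixed term Ccr1 passed in LSK (0.83, adjusted p = 0.0358), and the blocks changed no other call of the 8 receptors. Over all genes, the 886 calls in LSK became 1734 with array weights, 1390 in a fit of LSK alone and 455 to 563 without LSK WT replicate 1, 2 or 3 or LSK KO replicate 2 or 3; the 3212 in GMP became 1778 in a fit of GMP alone and 1853 without GMP WT replicate 2; the 1591 of the difference became 800 to 1056 without LSK WT replicate 1 or 2, LSK KO replicate 3 or GMP WT replicate 2 or 3; and the 3160 between KO populations became 1327 in a fit of these alone and 1667 without LSK KO replicate 3. Without GMP KO replicate 1, which enters the LSK tests only through the shared spread, the LSK calls rose to 1672. Centring on the median moved the median of all genes between WT populations from -0.029 to -0.124. Low readings have no detection call, so the size of an increase from a low level is uncertain.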
